A study of Drosophila melanogaster with 12 samples.

Results

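The glutathione S-transferase genes of *Drosophila melanogaster* were followed in accessory glands that expressed growth-promoting transgenes. Every gene whose symbol begins with Gst was taken from the deposited gene table, which gave 35 of 14323 genes, and the letter after Gst gave the class: 11 genes of class D (delta), 14 of class E (epsilon), 3 of class O (omega), 1 of class S (sigma), 4 of class T (theta) and 2 of class Z (zeta). RNA was sequenced from 12 libraries, 3 for each of 4 genotypes, and each library pooled 80 to 100 glands of males at day 10. Myc+E2f/Dp glands carried UAS-dMyc, UAS E2F1 and UAS-Dp. Yki*+Dp glands carried UAS-Dp and a UAS-Yki transgene that the labels name by its 3 altered positions, a constitutively active form of Yorkie, the coactivator that the Hippo pathway holds back. The label of that genotype also lists UAS E2F1, and the study describes its line as no longer inducing E2f well. YkiWT glands carried UAS-yki, the unaltered form. Control glands had none of these. All 4 genotypes, control included, had the y, w and hs-flp12 alleles, Uas-P35 (a baculovirus inhibitor of apoptosis) and Uas-GFP(nls), driven by Act>CD2>gal4 after a heat shock of 20 min at 37°C. The actin promoter is not restricted to the gland, only part of the cells of a gland switch the transgenes on, and glands were selected by their GFP, so each library mixes expressing and other cells.

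Glutathione S-transferases join the tripeptide glutathione to reactive or foreign molecules, which makes them easier to remove, and several also reduce lipid peroxides. Delta and epsilon enzymes are the insect classes best known for detoxifying insecticides and lipid peroxidation products, and many of their genes lie side by side in the genome. Omega enzymes use a cysteine in the active site and reduce dehydroascorbate, sigma enzymes act on lipid peroxidation products, zeta enzymes isomerise maleylacetoacetate in tyrosine breakdown, and theta enzymes form an old class of broad reactivity. In flies the best known inducer of these genes is the transcription factor CncC, encoded by *cnc* and held back by Keap1, and a *GstD1* reporter is widely used as a sign of oxidative stress.

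All 35 genes were found by name in the Ensembl BDGP6.54 annotation. The GstD cluster held all 11 delta genes within 20.8 kb of chromosome arm 3R (3R:12364776-12385624). *GstD10*, *GstD9* and *GstD1* lie first and on the minus strand, and the other 8 follow on the plus strand. The GstE cluster held 10 of the epsilon genes within 13.2 kb of 2R (2R:18396638-18409835), *GstE10* on the minus strand and *GstE1* to *GstE9* on the plus strand. *GstE11* (2R:18503608-18505025), *GstE12* (2R:24766718-24768172), *GstE13* (2R:9122125-9123309) and *GstE14* (2R:13239729-13241013) stand alone. *GstS1* lies at 2R:17093246-17099501, *GstT1* and *GstT2* adjoin each other at 2R:9605988-9608350, the 3 omega genes lie together on 3L (3L:8518885-8524866), *GstT3* (X:20467455-20469796) and *GstT4* (X:13404749-13409323) are on X, and *GstZ1* and *GstZ2* are neighbours on 3R (3R:9455517-9460652). The longest annotated coding sequences run from 199 to 268 codons, and 16 of the 35 genes have no intron in any annotated transcript, namely *GstD2* to *GstD8* and *GstE1* to *GstE9*.

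Values are TPM, the share of all transcripts that a gene's transcripts hold, corrected for their length, out of 1000000 per library. Such shares do not carry the sequencing depth, which is therefore unknown, and the precision of every value rests on 3 libraries. The transgene levels followed the labels in part. *E2f1* had 795 to 1020 TPM in Myc+E2f/Dp glands, 18.5 to 22.8 in Yki*+Dp, 14.4 to 17.4 in YkiWT and 16.5 to 21.2 in control, so the libraries labelled Yki*+Dp, whose label includes UAS E2F1, overlapped control. *yki* had 348 to 431 TPM in Yki*+Dp, 77.7, 70.5 and 163 in the 3 YkiWT libraries, and 14.2 to 16.5 in control. The Myc+E2f/Dp label lists no *yki* transgene, and *yki* was at 121.6, 175 and 55.9 TPM there. The study also reports *yki* as upregulated in Myc+E2f/Dp glands. Since TPM is a share of a fixed total, each library was multiplied by a factor taken from the median gene (0.645 to 0.776 in Myc+E2f/Dp, 0.928 to 0.989 in Yki*+Dp, 1.16 to 1.26 in YkiWT, 1.13 to 1.36 in control). As deposited, without these factors, the log2 fold change of the median gene against control would be 0.74 for Myc+E2f/Dp, 0.30 for Yki*+Dp and 0.05 for YkiWT. Levels are given below as deposited TPM, while fold changes, and statements on whether libraries of 2 genotypes overlap, are on scaled TPM. Markers of the gland's main cells were tested for 6 of 6 genes, and 3 were lower in Myc+E2f/Dp than in control by both thresholds, when 5.94% of all tested genes were. The summed level of the main cell markers was 29694 to 34400 TPM in Myc+E2f/Dp glands, 33758 to 37828 in Yki*+Dp, 42675 to 44096 in YkiWT and 42517 to 44349 in control. The 5 fat body markers summed to at most 2.22 TPM in any library. In such bulk RNA, fewer cells of a type and less RNA per cell cannot be told apart.

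In control glands most Gst RNA came from a few genes, with means of 233 TPM for *GstD1*, 56.6 for *GstO2* and 54.0 for *GstE12*. The 35 genes summed to 1126 ± 150 TPM in Myc+E2f/Dp glands, 1225 ± 83.5 in Yki*+Dp, 807 ± 50.9 in YkiWT and 554 ± 32.7 in control (SD, n = 3 each). On scaled TPM the sums were 793 ± 41.9 in Myc+E2f/Dp, 1171 ± 63.8 in Yki*+Dp, 972 ± 74.2 in YkiWT and 692 ± 27.4 in control, so the Yki*+Dp sum was 1.69 times, the YkiWT sum 1.41 times and the Myc+E2f/Dp sum 1.15 times that of control. As deposited, the Myc+E2f/Dp sum was 2.03 times that of control, so the size of this difference depends on the scaling.

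By class, the epsilon sum was 1.52 times that of control in Myc+E2f/Dp, 2.04 times in Yki*+Dp and 1.72 times in YkiWT on scaled TPM. The delta sum was 1.15 times that of control in Myc+E2f/Dp, 2.01 times in Yki*+Dp and 1.46 times in YkiWT. *GstD1* made up most of the delta sum, with a mean of 233 of 243 TPM in control and 603 of 638 in Yki*+Dp. Its own scaled ratio to control was 1.12 in Myc+E2f/Dp, 1.98 in Yki*+Dp and 1.42 in YkiWT. The omega sum was 0.897 to 1.03 times that of control on scaled TPM, but 1.58 times in Myc+E2f/Dp as deposited. Delta genes held 44.2% of the family's TPM in Myc+E2f/Dp glands, 52.1% in Yki*+Dp, 45.5% in YkiWT and 43.9% in control. The epsilon share was 33.3% in Myc+E2f/Dp, 30.4% in Yki*+Dp, 30.9% in YkiWT and 25.2% in control, while the omega share was 11.8%, 8.85% and 11.04% in the oncogene genotypes in that order, against 15.0% in control. No test was run on these sums.

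**Figure D1:**
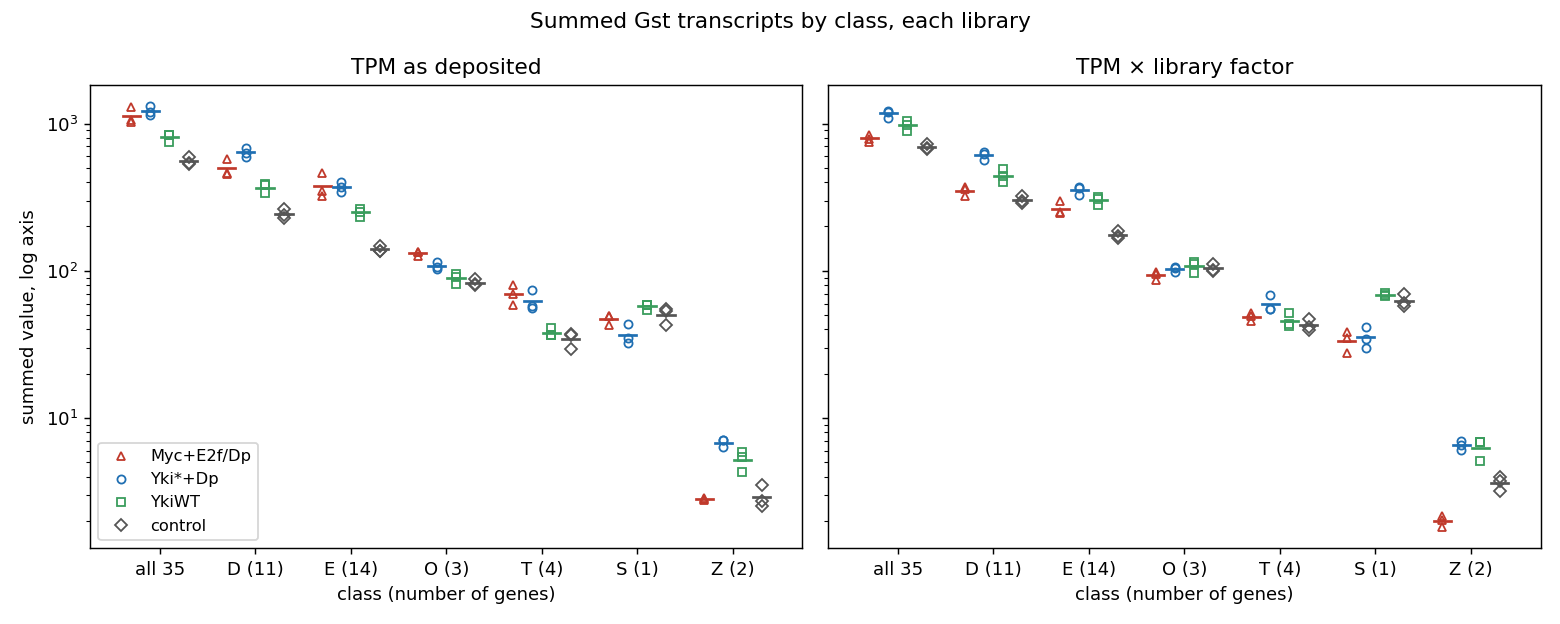
Summed TPM of the Gst genes on a log axis, for all 35 genes and by class (number of genes in parentheses), as deposited (left) and multiplied by the library factor (right). Each symbol is 1 library, the bar is the mean of 3, and genotypes run from Myc+E2f/Dp to control within each class. On scaled TPM the Yki*+Dp and YkiWT libraries lie above control for classes D and E, and class O is close in all genotypes. The Myc+E2f/Dp libraries lie above control for class E and overlap it for class D.

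Of the 35 genes, 25 reached 1 TPM in 3 or more libraries and were tested. Of those, 20 had at least 1 TPM in all control libraries, and 5 (*GstD2*, *GstD5*, *GstD10*, *GstE5* and *GstE8*) were under 1 TPM in every control library. These 5 passed the filter only through genotypes where they were higher, so the counts below describe the tested genes and are not a measure of the whole family. The other 10 (*GstD4*, *GstD6*, *GstD7*, *GstD8*, *GstD11*, *GstE2*, *GstE4*, *GstE10*, *GstE14* and *GstZ2*) were not tested. Each stayed under 1 TPM in all 12 libraries. *GstE14*, known as noppera-bo for its part in ecdysteroid synthesis, reached at most 0.0878 TPM. Values of 5 of them, chosen after they were seen and not tested, are given. *GstD7* had 0.540, 0.209 and 0.259 TPM in Yki*+Dp and at most 0.0132 in control. *GstE2* had 0.752, 0.543 and 0.390 TPM in Yki*+Dp, against 0.0536, 0.191 and 0.0924 in control. *GstD4* had 0.148, 0.178 and 0.224 TPM in Myc+E2f/Dp, against 0.0406, 0.0281 and 0.0489 in control. For *GstD6* the values were 0.1595, 0.128 and 0.900 TPM in Myc+E2f/Dp and at most 0.0366 in control, and for *GstE4* 0.0840, 0.101 and 0.154 TPM in Myc+E2f/Dp and at most 0.01998 in control. These differences, all at levels under 1 TPM, are on TPM as deposited. Control libraries had 20 Gst genes at 1 TPM or more, and the other libraries had 22 to 25. Over all genes, also as deposited, 6902 to 7257 reached 1 TPM in control libraries and 7248 to 8120 in the others.

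In the comparisons, a gene was said to have risen or fallen when limma's adjusted p, over 8128 genes, was under 0.05 and the log2 fold change was at least 1 either way. Log2 fold changes are on log2(scaled TPM + 1), which understates the change of low genes, and are given with their standard error (SE). The 3 comparisons with control share the same control libraries. The p-values measure the spread between the 3 libraries that the labels number as replicates within a genotype. Nothing more about the origin of these libraries was used. The fit pooled that spread over all genotypes, so a gene has the same SE in each comparison. Scatter in a genotype outside a comparison therefore enters the SE and p-values of that comparison.

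In Yki*+Dp glands 9 of the 25 tested Gst genes rose and none fell, when 5.52% of all tested genes rose and 1.46% fell, 6.99% in all. The 9 were the delta genes *GstD2* and *GstD9*, the epsilon genes *GstE1*, *GstE3*, *GstE6*, *GstE8*, *GstE9* and *GstE11*, and the theta gene *GstT3*. In YkiWT 5 rose (*GstD2*, *GstD5*, *GstE1*, *GstE3* and *GstE9*) and none fell, when 1.88% of all tested genes rose and 0.246% fell, 2.13% in all. In Myc+E2f/Dp 2 rose (*GstD2* and *GstE1*) and 1 fell (*GstE13*), which is 12% of the tested members, when 7.15% of all tested genes rose and 5.94% fell, 13.1% in all, so the Myc+E2f/Dp share was near the background. Of the genes that rose, *GstD2*, *GstD5* and *GstE8* were under 1 TPM in every control library and had little room to fall. The others that rose had at least 1 TPM in all control libraries. The counts and medians that follow also include the genes that were under 1 TPM in control. By adjusted p alone, 10 Gst genes were higher and 6 lower in Myc+E2f/Dp (35.8% and 29% of all genes), 15 higher and 2 lower in Yki*+Dp (20.7% and 18.2%), and 14 higher and 0 lower in YkiWT (7.34% and 3.26%). At limma's unadjusted p under 0.05, 19 of the 25 were higher and 3 lower in Yki*+Dp (24.6% and 22.4% of all genes), 15 higher and 0 lower in YkiWT (15% and 9.61%), and 10 higher and 6 lower in Myc+E2f/Dp (37.8% and 30.4%). The median log2 fold change of the 25 genes was 0.30 in Myc+E2f/Dp, 0.93 in Yki*+Dp and 0.51 in YkiWT, beside 0.05, -0.00 and 0.01 over all tested genes.

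**Figure D2:**
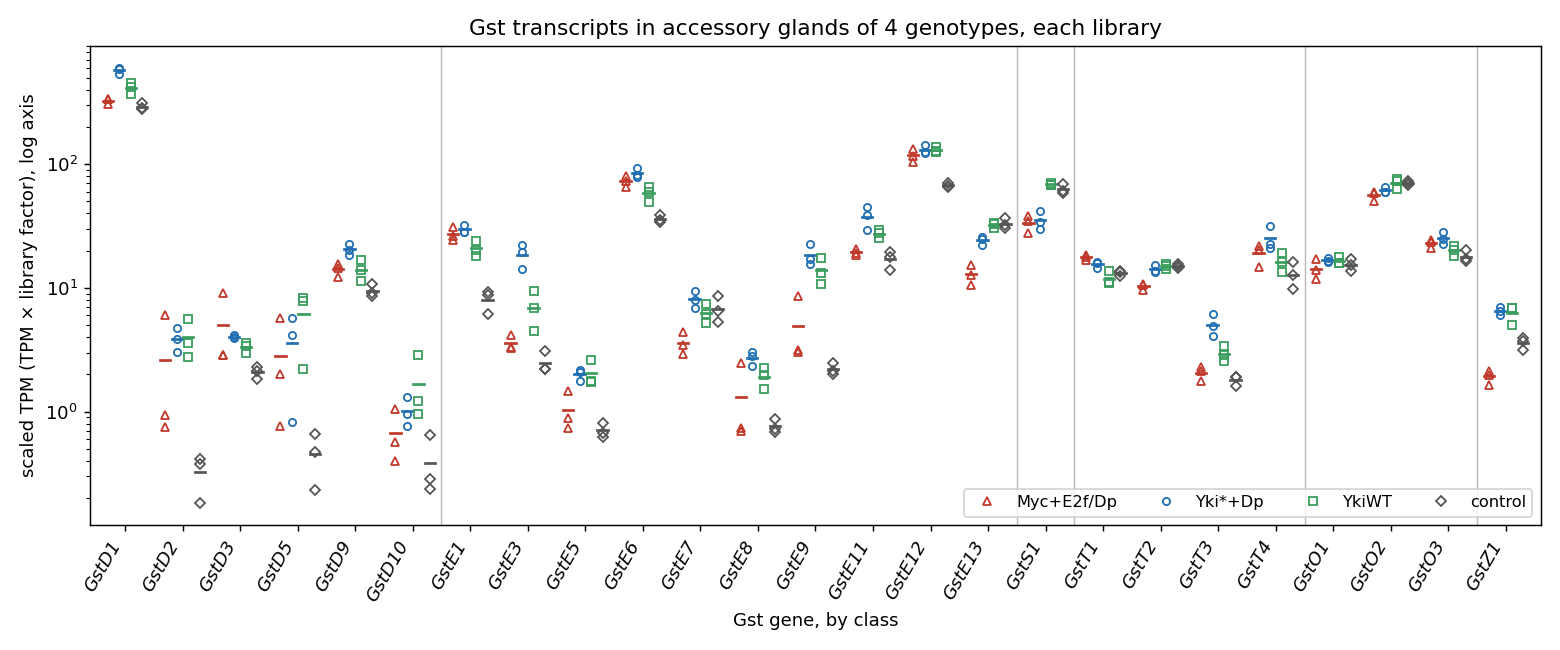
Scaled TPM (deposited TPM times the library factor, log axis) of the 25 tested Gst genes, ordered by class. Each symbol is 1 library and each bar the mean of 3, with Myc+E2f/Dp, Yki*+Dp, YkiWT and control from left to right. *GstD1* is the highest gene in every library, and for *GstD2*, *GstD3*, *GstE8* and *GstE9* 1 of the 3 Myc+E2f/Dp libraries stands well above the other 2.

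The clustered delta genes differed widely in level. *GstD1*, which can dechlorinate DDT and is the source of the stress reporter, was the most abundant member in all libraries. It had 433, 430 and 518 TPM in Myc+E2f/Dp glands, 600, 649 and 559 in Yki*+Dp, 360, 360 and 310 in YkiWT, and 228, 252 and 220 in control. As deposited, all oncogene libraries lay above all control libraries, but on scaled TPM the Myc+E2f/Dp and control libraries overlapped. The log2 fold change of *GstD1* was 0.16 ± 0.09 in Myc+E2f/Dp (adjusted p = 0.139), 0.98 ± 0.09 in Yki*+Dp (adjusted p = 1.19e-05, just short of the fold threshold) and 0.50 ± 0.09 in YkiWT (adjusted p = 0.00533). As deposited, the *GstD1* value in Myc+E2f/Dp was 0.98 (adjusted p = 2.85e-06). Without Yki*+Dp replicate 3 or control replicate 1, the Yki*+Dp value was 1.04 or 1.02 and passed both thresholds.

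*GstD9*, the minus-strand neighbour of *GstD1*, had 18.8, 17.4 and 24.3 TPM in Myc+E2f/Dp glands, 22.9, 20.0 and 21.2 in Yki*+Dp, 13.3, 12.1 and 9.52 in YkiWT, and 7.90, 8.005 and 6.83 in control. Each oncogene genotype lay above control in every library. *GstD9* rose in Yki*+Dp, by 1.04 ± 0.13 on the log2 scale (adjusted p = 0.000127), a call that rests near the fold threshold: it was 0.97 without Yki*+Dp replicate 1 and 0.98 without control replicate 3. The difference was 0.53 ± 0.13 in Myc+E2f/Dp (adjusted p = 0.00481) and 0.51 ± 0.13 in YkiWT (adjusted p = 0.0349), both below the fold threshold. As deposited, the Myc+E2f/Dp value was 1.29 (adjusted p = 3.23e-06), past both thresholds.

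*GstD2* and *GstD5*, intronless genes on the plus strand, were nearly silent in control. *GstD2* had 1.22, 1.07 and 9.41 TPM in Myc+E2f/Dp glands, 3.09, 5.14 and 4.05 in Yki*+Dp, 2.86, 2.40 and 4.65 in YkiWT, and 0.303, 0.332 and 0.144 in control. No oncogene library overlapped the control libraries, and Myc+E2f/Dp replicate 3 stood far above the other 2 of its genotype. *GstD2* rose in all 3 genotypes, by 1.13 ± 0.43 in log2 units in Myc+E2f/Dp (adjusted p = 0.0379), 1.88 ± 0.43 in Yki*+Dp (adjusted p = 0.0052) and 1.88 ± 0.43 in YkiWT (adjusted p = 0.0189). The ratio of scaled means was 8.01 in Myc+E2f/Dp, 12.045 in Yki*+Dp and 12.3 in YkiWT. Without Myc+E2f/Dp replicate 3 the Myc+E2f/Dp value was 0.48 (adjusted p = 0.0792), and it also missed the p threshold without any 1 of the control libraries (adjusted p = 0.0666 to 0.0915). In YkiWT the *GstD2* call was lost without YkiWT replicate 1 or 3 or any 1 of the control libraries (adjusted p = 0.0521 to 0.068).

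*GstD5* had 2.59, 1.07 and 8.86 TPM in Myc+E2f/Dp glands, 0.827, 6.19 and 4.39 in Yki*+Dp, 6.285, 1.90 and 6.94 in YkiWT, and 0.485, 0.206 and 0.369 in control. Its libraries varied several-fold within each oncogene genotype, yet none overlapped control. It rose in YkiWT, by 2.15 ± 0.58 (adjusted p = 0.038), and lost that call without YkiWT replicate 1 or 3 or any 1 of the control libraries (adjusted p = 0.0854 to 0.126). The difference was 1.19 ± 0.58 in Myc+E2f/Dp (adjusted p = 0.0933) and 1.47 ± 0.58 in Yki*+Dp (adjusted p = 0.0672). It passed in Myc+E2f/Dp without Myc+E2f/Dp replicate 2 (1.62, adjusted p = 0.0394), and in Yki*+Dp without Yki*+Dp replicate 1 (2.03, adjusted p = 0.0173), Myc+E2f/Dp replicate 3 (1.45, adjusted p = 0.0411) or YkiWT replicate 2 (1.47, adjusted p = 0.0485).

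The other tested delta genes passed in no comparison. *GstD3* had 3.68, 4.05 and 14.2 TPM in Myc+E2f/Dp glands, 4.01 to 4.4999 in Yki*+Dp, 2.55 to 2.87 in YkiWT and 1.61 to 1.69 in control, again with Myc+E2f/Dp replicate 3 apart. *GstD10* stayed under 2.28 TPM in every library. Myc+E2f/Dp replicate 3 also had the highest *Myc* (232 TPM, against 156 and 114 in the other 2) and *Dp* (1449 TPM, against 618 and 1039) of its genotype. Its *E2f1* (795 TPM, against 1001 and 1020) and *yki* (55.9 TPM, against 121.6 and 175) were the lowest. The 3 ejaculatory duct markers were also highest in that library, *Dup99B* with 598 TPM against 146 and 329. The part of these levels in the Gst values was not tested.

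In the GstE cluster, *GstE1* and *GstE6* were high in all 3 oncogene genotypes. *GstE1*, which conjugates the lipid peroxidation product hydroxynonenal, had 33.9, 34.1 and 48.1 TPM in Myc+E2f/Dp glands, 32.8, 30.7 and 29.5 in Yki*+Dp, 14.5, 20.8 and 16.9 in YkiWT, and 6.81, 7.71 and 4.83 in control. All oncogene libraries lay above all control libraries. *GstE1* rose by 1.65 ± 0.15 in log2 units in Myc+E2f/Dp (adjusted p = 3.51e-06), 1.78 ± 0.15 in Yki*+Dp (adjusted p = 6.42e-06) and 1.28 ± 0.15 in YkiWT (adjusted p = 0.000351). It stayed past both thresholds in each of these comparisons under all 23 alternative settings, leaving out any 1 library included. The first 127 bases of *GstE1* overlap *GstE10* on the other strand, which reached at most 0.566 TPM.

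*GstE6* had 94.6, 92.2 and 123 TPM in Myc+E2f/Dp glands, 93.8, 84.3 and 85.3 in Yki*+Dp, 52.1, 51.8 and 41.4 in YkiWT, and 28.4, 30.9 and 26.8 in control. Here too no oncogene library overlapped control. *GstE6* rose in Yki*+Dp, by 1.21 ± 0.11 (adjusted p = 1.34e-05). In Myc+E2f/Dp the difference was 0.9996 ± 0.11 (adjusted p = 1.96e-05), just under the fold threshold, and it passed without Myc+E2f/Dp replicate 2 (1.08) or control replicate 1 (1.05). In YkiWT it was 0.68 ± 0.11 (adjusted p = 0.00358).

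On the log2(scaled TPM + 1) scale *GstE9* and *GstE3* had the highest fold changes of the tested members in Yki*+Dp, while by the ratio of scaled means *GstD2* (12.045) was above *GstE9* (8.43) and *GstE3* (7.46). *GstE3* had 5.37, 4.64 and 5.12 TPM in Myc+E2f/Dp glands, 19.6, 23.9 and 14.9 in Yki*+Dp, 7.50, 5.95 and 3.73 in YkiWT, and 2.27, 1.94 and 1.73 in control. The Yki*+Dp libraries lay above all others. *GstE3* rose by 2.48 ± 0.22 in Yki*+Dp (adjusted p = 9.37e-06) and 1.14 ± 0.22 in YkiWT (adjusted p = 0.00758), and the difference in Myc+E2f/Dp was 0.40 ± 0.22 (adjusted p = 0.132). Without YkiWT replicate 1 the YkiWT value was 0.93 (adjusted p = 0.026), below the fold threshold. As deposited, the Myc+E2f/Dp value was 1.02 (adjusted p = 0.000376), past both thresholds.

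*GstE9*, the last gene of the cluster, had 4.02, 4.28 and 13.2 TPM in Myc+E2f/Dp glands, 17.4, 24.6 and 16.4 in Yki*+Dp, 8.57, 15.2 and 11.1 in YkiWT, and 1.49, 1.86 and 1.95 in control. Both Yorkie genotypes lay well above control, and Myc+E2f/Dp replicate 3 again exceeded the other 2 of its genotype. *GstE9* rose by 2.60 ± 0.29 in Yki*+Dp (adjusted p = 4.87e-05) and 2.19 ± 0.29 in YkiWT (adjusted p = 0.00099). In Myc+E2f/Dp the difference was 0.76 ± 0.29 (adjusted p = 0.0399), and 0.35 without Myc+E2f/Dp replicate 3. As deposited, that difference was 1.39 (adjusted p = 0.00185), past both thresholds. The *GstE9* and *imd* genes overlap by 40 bases on opposite strands.

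*GstE8* had 0.955, 0.985 and 3.81 TPM in Myc+E2f/Dp glands, 2.87, 3.27 and 2.44 in Yki*+Dp, 1.21, 1.71 and 1.89 in YkiWT, and 0.534, 0.607 and 0.689 in control. The Yki*+Dp and YkiWT libraries lay above control, and those of Myc+E2f/Dp overlapped it. *GstE8* rose in Yki*+Dp, by 1.08 ± 0.23 (adjusted p = 0.00312), and the difference was 0.72 ± 0.23 in YkiWT (adjusted p = 0.0701) and 0.30 ± 0.23 in Myc+E2f/Dp (adjusted p = 0.261). Between *GstE6* and *GstE8* lies *GstE7*, whose values were 4.45, 4.10 and 6.81 TPM in Myc+E2f/Dp glands, 7.42 to 9.54 in Yki*+Dp, 4.502 to 5.93 in YkiWT and 4.22 to 6.29 in control. It did not pass in any comparison, and its log2 fold change stood at -0.76 ± 0.17 in Myc+E2f/Dp (adjusted p = 0.00271) and 0.23 ± 0.17 in Yki*+Dp (adjusted p = 0.331), with -0.08 in Myc+E2f/Dp as deposited. *GstE5*, the remaining tested gene of the cluster, was 0.82 ± 0.14 higher in both Yki*+Dp (adjusted p = 0.000957) and YkiWT (adjusted p = 0.00481) on the log2 scale, below the fold threshold.

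**Figure D3:**
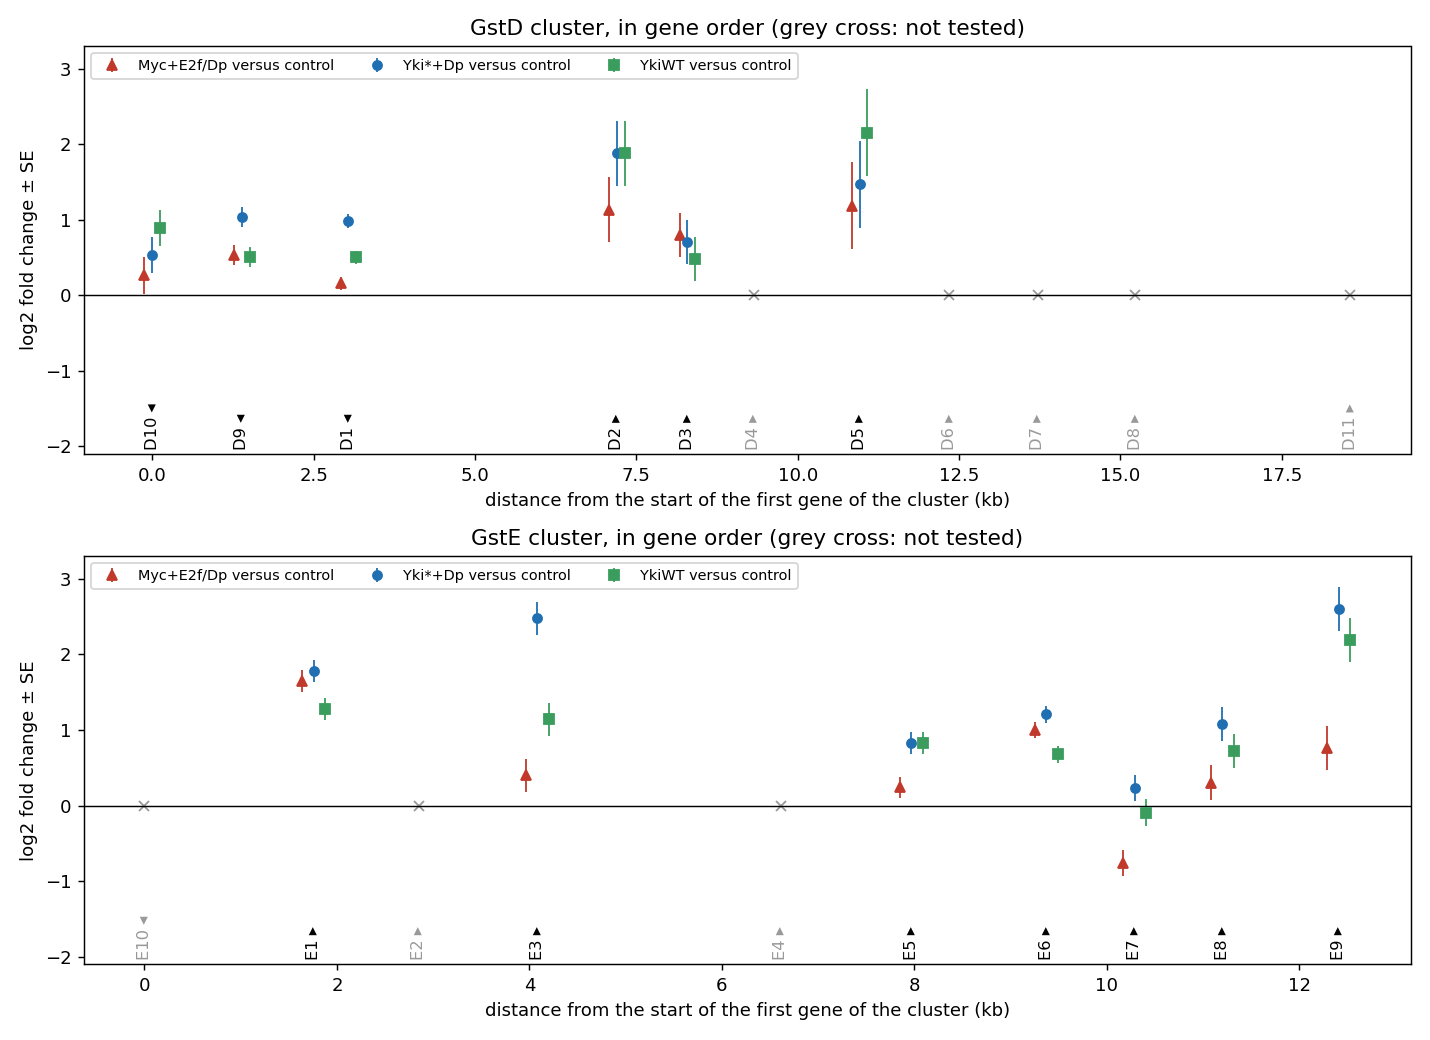
Log2 fold change ± SE against control of the genes in the GstD cluster (top) and GstE cluster (bottom), placed by distance (kb) from the start of the first gene. Names below give gene order, arrows pointing up mark the plus strand and arrows pointing down the minus strand, and grey crosses mark genes not tested. Neighbours differ: *GstE7*, between *GstE6* and *GstE8*, is at -0.76 in Myc+E2f/Dp but at 0.23 in Yki*+Dp, while *GstE3* and *GstE9* reach 2.48 and 2.60 in Yki*+Dp.

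Outside the cluster the epsilon genes went different ways. *GstE11* had 23.8, 27.0 and 31.7 TPM in Myc+E2f/Dp glands, 39.2, 48.3 and 30.8 in Yki*+Dp, 23.5, 23.8 and 21.0 in YkiWT, and 14.5, 12.4 and 13.9 in control. On scaled TPM only the Myc+E2f/Dp libraries overlapped control. *GstE11* rose in Yki*+Dp, by 1.08 ± 0.15 (adjusted p = 0.000169), and was 0.95 without control replicate 2 and 0.955 without Yki*+Dp replicate 2. The difference was 0.66 ± 0.15 in YkiWT (adjusted p = 0.0164) and 0.18 ± 0.15 in Myc+E2f/Dp (adjusted p = 0.299).

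*GstE12*, among the 3 most abundant members in control, had 133, 163 and 207 TPM in Myc+E2f/Dp glands, 126, 153 and 128 in Yki*+Dp, 109, 111 and 104 in YkiWT, and 48.4, 58.5 and 55.2 in control. It was higher than control in every oncogene library, by 0.79 ± 0.09 in Myc+E2f/Dp (adjusted p = 3.14e-05), 0.93 ± 0.09 in Yki*+Dp (adjusted p = 2.36e-05) and 0.94 ± 0.09 in YkiWT (adjusted p = 0.000124) on the log2 scale, each under the fold threshold. As deposited, *GstE12* passed both thresholds in Myc+E2f/Dp (1.60, adjusted p = 8.79e-07) and Yki*+Dp (1.31, adjusted p = 1.83e-05).

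*GstE13* had 19.9, 18.0 and 16.2 TPM in Myc+E2f/Dp glands, 25.3, 23.8 and 27.0 in Yki*+Dp, 26.4, 28.4 and 25.6 in YkiWT, and 26.9, 26.9 and 25.4 in control. The Myc+E2f/Dp libraries were the lowest, also as deposited. *GstE13* fell in Myc+E2f/Dp, by 1.31 ± 0.12 on the log2 scale (adjusted p = 4.13e-06), and fell by 0.53 as deposited, under the fold threshold. The log2 fold change was -0.43 ± 0.12 in Yki*+Dp (adjusted p = 0.015) and -0.03 ± 0.12 in YkiWT (adjusted p = 0.893).

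Among the theta genes *GstT3* rose in Yki*+Dp. It had 2.75, 3.22 and 2.74 TPM in Myc+E2f/Dp glands, 4.96, 6.60 and 4.28 in Yki*+Dp, 2.70, 2.46 and 2.15 in YkiWT, and 1.41, 1.43 and 1.49 in control. The Yki*+Dp and YkiWT libraries lay above control, and those of Myc+E2f/Dp overlapped it on scaled TPM. The log2 fold change of *GstT3* was 1.09 ± 0.12 in Yki*+Dp (adjusted p = 4.98e-05), 0.49 ± 0.12 in YkiWT (adjusted p = 0.0304) and 0.12 ± 0.12 in Myc+E2f/Dp (adjusted p = 0.4), and the Yki*+Dp value was 0.97 without Yki*+Dp replicate 2. The other 3 theta genes passed in no comparison. *GstT4* was 0.93 ± 0.21 higher in Yki*+Dp (adjusted p = 0.00448). *GstT2*, which overlaps *CG12926* by 223 bases on the other strand, had a log2 fold change of -0.50 ± 0.07 in Myc+E2f/Dp (adjusted p = 7.12e-05), with the opposite sign as deposited (0.26).

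None of the 3 omega genes passed in any comparison. *GstO2*, the second most abundant member in control, had 77.2, 81.7 and 78.4 TPM in Myc+E2f/Dp glands, 60.3, 70.4 and 62.4 in Yki*+Dp, 60.7, 62.9 and 52.3 in YkiWT, and 54.1, 60.4 and 55.4 in control. Its direction in Myc+E2f/Dp depended on the scaling, with a log2 fold change of -0.33 ± 0.09 (adjusted p = 0.00661) on scaled TPM and 0.48 as deposited (adjusted p = 0.000332). It was -0.20 ± 0.09 in Yki*+Dp (adjusted p = 0.0973) and -0.01 ± 0.09 in YkiWT (adjusted p = 0.966). *GstO1* and *GstO3* had log2 fold changes of -0.11 to 0.48 in the 3 genotypes. As deposited, the Myc+E2f/Dp values were 0.66 for *GstO1*, of the opposite sign, and 1.13 for *GstO3*, which then passed both thresholds (adjusted p = 3.44e-06).

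*GstS1*, the only sigma gene, has no place in the rule for full values and was chosen after its values were seen. In flies it is known as an abundant protein of flight muscle. It had 49.5, 49.1 and 42.8 TPM in Myc+E2f/Dp glands, 34.8, 32.4 and 43.4 in Yki*+Dp, 54.3, 58.6 and 59.0 in YkiWT, and 42.6, 53.5 and 55.1 in control. On scaled TPM the Myc+E2f/Dp and Yki*+Dp libraries lay below all control libraries. The log2 fold change stood at -0.89 ± 0.13 in Myc+E2f/Dp (adjusted p = 0.000153), -0.82 ± 0.13 in Yki*+Dp (adjusted p = 0.000558) and 0.14 ± 0.13 in YkiWT (adjusted p = 0.564), with no call at the fold threshold and with -0.09 in Myc+E2f/Dp as deposited (adjusted p = 0.516). Of 11 muscle markers, 8 were tested. The summed level of the 11 was 207 to 322 TPM in Myc+E2f/Dp glands, 455 to 533 in Yki*+Dp, 332 to 412 in YkiWT and 256 to 334 in control. Of the 8 tested, 5 fell in Myc+E2f/Dp, where 5.94% of all tested genes fell, while none passed in Yki*+Dp or YkiWT. The part of muscle in the *GstS1* values was not tested.

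*GstZ1*, which encodes a maleylacetoacetate isomerase, had 2.74, 2.80 and 2.56 TPM in Myc+E2f/Dp glands, 7.03, 6.99 and 6.32 in Yki*+Dp, 5.45, 5.89 and 4.20 in YkiWT, and 2.72, 3.50 and 2.49 in control. Both Yorkie genotypes lay above control and Myc+E2f/Dp lay below it on scaled TPM, while as deposited Myc+E2f/Dp and control overlapped. The log2 fold change stood at -0.66 ± 0.11 in Myc+E2f/Dp (adjusted p = 0.000412), 0.70 ± 0.11 in Yki*+Dp (adjusted p = 0.000526) and 0.64 ± 0.11 in YkiWT (adjusted p = 0.00474), none past the fold threshold.

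**Figure D4:**
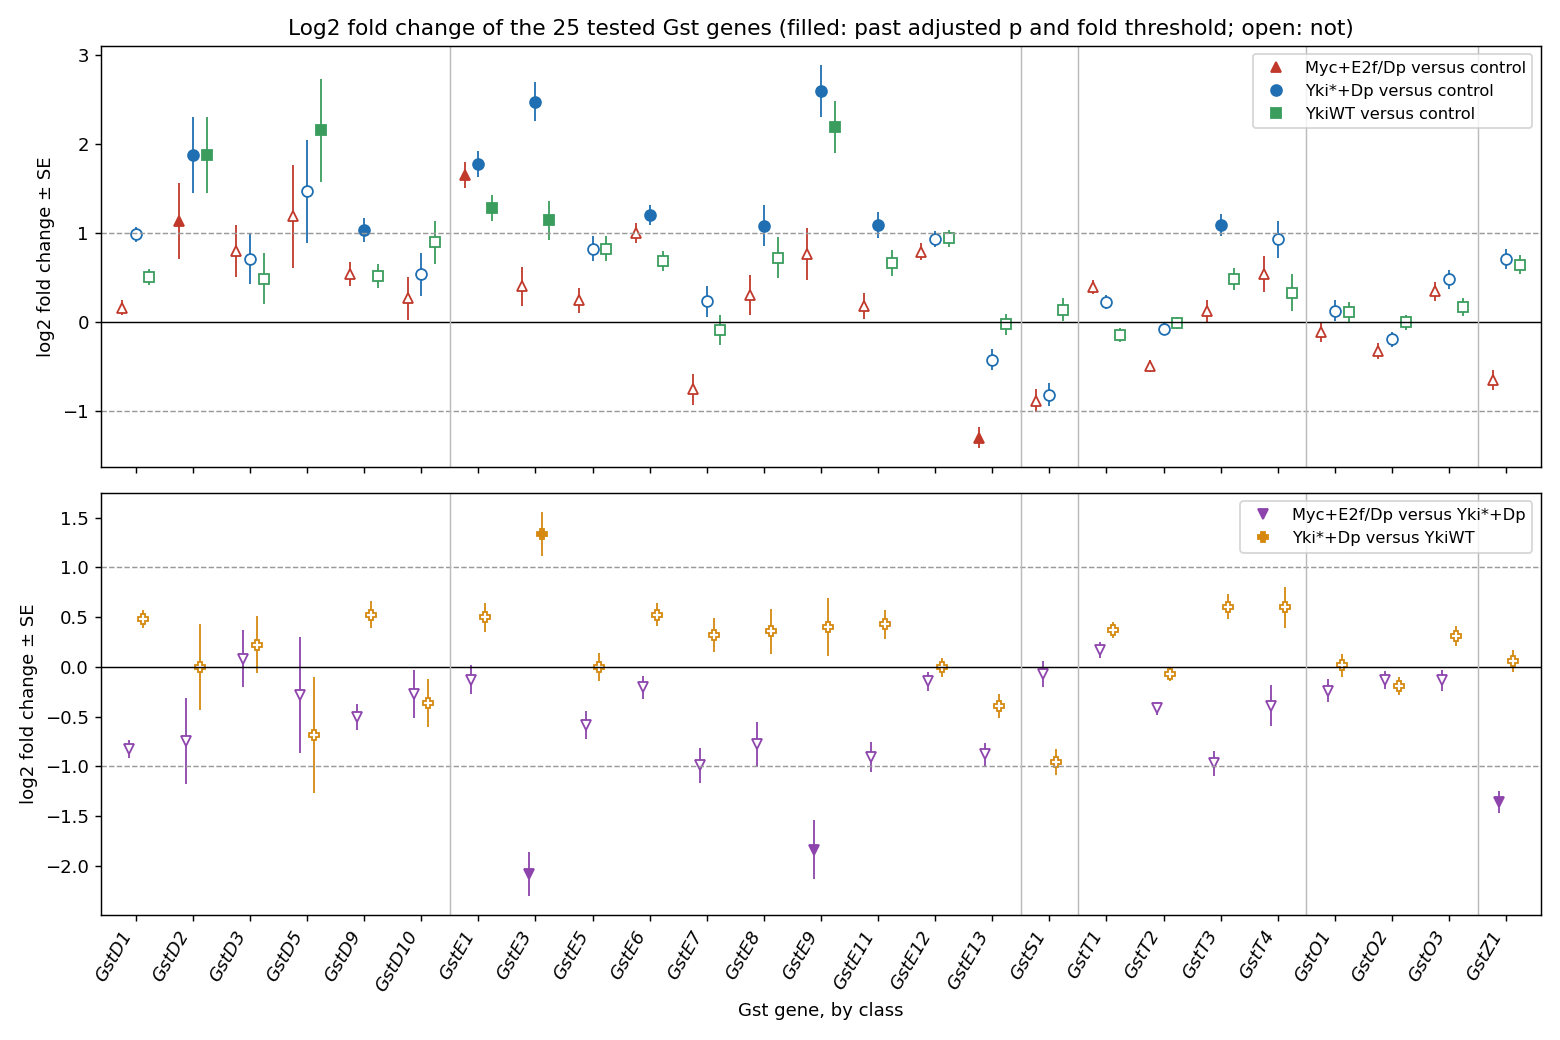
Log2 fold change ± SE of the 25 tested Gst genes, by class, for the 3 comparisons with control (top) and the 2 direct comparisons (bottom). Filled symbols passed both the adjusted p and the fold threshold (dashed lines at 1 and -1), open symbols did not. In the top panel 9 circles (Yki*+Dp), 5 squares (YkiWT) and 3 triangles (Myc+E2f/Dp) are filled, and in the bottom panel *GstE3*, *GstE9* and *GstZ1* are filled below -1 and *GstE3* above 1.

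The direct comparisons asked which members separated the genotypes from each other. Between Myc+E2f/Dp and Yki*+Dp, 3 of the 25 genes were lower in Myc+E2f/Dp and 0 higher, when 10.5% of all tested genes passed, 5.52% lower and 5% higher. *GstE3* was lower by 2.08 ± 0.22 on the log2 scale (adjusted p = 1.37e-05), *GstE9* by 1.84 ± 0.29 (adjusted p = 0.000303) and *GstZ1* by 1.36 ± 0.11 (adjusted p = 2.11e-06). As deposited the same 3 genes passed and no other. By adjusted p alone 12 Gst genes were lower in Myc+E2f/Dp and 0 higher (27.9% and 28.8% of all genes), and the counts were the same at limma's unadjusted p under 0.05 (30.7% and 30.9% of all genes). Among the 12 were *GstD1*, with a log2 fold change of -0.82 ± 0.09 (adjusted p = 1.71e-05), and *GstE13*, with -0.88 ± 0.12 (adjusted p = 8.93e-05). The one-sided count depended on the scaling. As deposited, *GstD9*, *GstE5*, *GstE8* and *GstT2* no longer passed the adjusted p, and the rest of the 12 did, with *GstD1* at -0.39 (adjusted p = 0.00461). On the same values *GstT1* (0.59, adjusted p = 0.00016), *GstS1* (0.35, adjusted p = 0.0223) and *GstO2* (0.30, adjusted p = 0.0121) were higher in Myc+E2f/Dp. For *GstE1* the difference was -0.13 ± 0.15 (adjusted p = 0.48).

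Between Yki*+Dp and YkiWT, *GstE3* alone passed, higher in Yki*+Dp by 1.33 ± 0.22 on the log2 scale (adjusted p = 0.00117), when 4.02% of all tested genes passed, 2.47% higher and 1.55% lower. *Dp* had 1866 to 2548 TPM in Yki*+Dp and 21.8 to 23.5 in YkiWT, and *yki* 348 to 431 against 70.5 to 163. The altered form of Yorkie, the *yki* level and *Dp* therefore cannot be told apart in this comparison. By adjusted p alone 8 Gst genes were higher in Yki*+Dp and 2 lower (14.6% and 13.1% of all genes). The 2 lower were *GstS1*, with a log2 fold change of -0.96 ± 0.13 (adjusted p = 0.000396), and *GstE13*, with -0.40 ± 0.12 (adjusted p = 0.0297). The *GstS1* value was -1.07 without Yki*+Dp replicate 3. *GstE9* differed by 0.40 ± 0.29 (adjusted p = 0.334) and *GstD2* by -0.00 ± 0.43 (adjusted p = 1).

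The 35 genes had 54 transcripts in the deposited table, of which 30, from all 25 tested genes, were tested. At the same thresholds 2 rose and 1 fell in Myc+E2f/Dp (12.2% of all tested transcripts passed in either direction), 10 rose in Yki*+Dp (7.17%) and 5 rose in YkiWT (2.09%). Genes with several transcripts mostly used 1 of them: the main *GstD1* transcript held 99.0% of the gene's TPM in Myc+E2f/Dp glands, 99.4% in Yki*+Dp, 98.9% in YkiWT and 99.2% in control. *GstO2* divided its RNA alike in all genotypes, with 78.5% in Myc+E2f/Dp, 79.2% in Yki*+Dp, 79.4% in YkiWT and 79.1% in control for its main transcript. In the direct comparisons 5 transcripts were lower in Myc+E2f/Dp than in Yki*+Dp (9.61% of all tested transcripts passed), and between Yki*+Dp and YkiWT 1 was higher and 1, of *GstS1*, lower (4.48%).

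Genes around the family were counted from lists that supply or recycle glutathione. Of 7 glutathione synthesis genes, all tested, 1 rose in Myc+E2f/Dp, where 7.15% of all tested genes rose, and none passed in Yki*+Dp or YkiWT. A count of 1 in 7 is near that background. The gene was *Gclc*, the catalytic subunit of the enzyme for the first step of glutathione synthesis, with 13.1, 14.6 and 22.5 TPM in Myc+E2f/Dp, against 2.80, 3.87 and 3.16 in control (log2 fold change 1.31, adjusted p = 2.47e-06). The glutathione synthetase genes *Gss1* and *Gss2* had identical TPM in every library and cannot be told apart. Of 9 genes of glutathione and thioredoxin redox, 8 were tested and none passed against control. Neither did *cnc*, *Keap1* and *maf-S*, nor the 4 tested of 5 other genes with the glutathione S-transferase fold. For *cnc* the log2 fold change stood at 0.46 in Myc+E2f/Dp (adjusted p = 0.00127), 0.23 in Yki*+Dp (adjusted p = 0.0718) and 0.06 in YkiWT (adjusted p = 0.713). Of 11 antioxidant enzymes, all tested, the peroxiredoxin gene *Prx6005* rose in Myc+E2f/Dp, with 28.3, 33.1 and 35.4 TPM, against 6.71, 7.69 and 6.47 in control (log2 fold change 1.30, adjusted p = 1.76e-07). *Jafrac2*, a peroxiredoxin of the secretory pathway, fell there, with 86.0, 70.9 and 61.7 TPM, against 104, 115 and 89.6 in control (adjusted p = 3.97e-05). These 2 of 11 genes stand beside the 13.1% of all tested genes that passed in Myc+E2f/Dp. The antioxidant list, too, had no call in Yki*+Dp or YkiWT. At limma's unadjusted p under 0.05 and any fold, at which the shares of all tested genes are those given above, 3 antioxidant genes were higher and 2 lower in Myc+E2f/Dp, 7 higher and 2 lower in Yki*+Dp, and 6 higher and 1 lower in YkiWT. In the same way 2 synthesis genes were higher and 2 lower in Myc+E2f/Dp, 4 higher and 2 lower in Yki*+Dp, and 0 higher and 1 lower in YkiWT. *Gss1* and *Gss2*, with identical values, are both among the 4 and are not separate measurements. Of the redox genes 1 was higher and 3 lower in Myc+E2f/Dp, 2 higher and 2 lower in Yki*+Dp, and 3 higher and 0 lower in YkiWT. Of *cnc*, *Keap1* and *maf-S*, 2 were higher and 1 lower in Myc+E2f/Dp, 1 higher in Yki*+Dp and 0 in YkiWT, and of the 4 other genes with the fold 2 were higher and 2 lower in Myc+E2f/Dp and 1 was higher in each of Yki*+Dp and YkiWT.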

How the data were processed

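Poly-A RNA of 12 libraries was sequenced by the authors, who trimmed reads (cutadapt 1.18, per the processing notes), assigned them to Ensembl BDGP6 transcripts with kallisto and deposited TPM per transcript and per gene. Neither the kallisto version nor its strand option is given in the sources used here, so reads of overlapping genes on opposite strands, and of near-identical Gst copies, may have been divided between them. Gene values equalled transcript sums. Libraries were grouped by genotype label. TPM was multiplied by median-of-ratios factors from 6633 genes that reached 1 TPM in each library, and log2(value + 1) of the 8128 genes that reached 1 TPM in 3 libraries was fitted with limma 3.58.1 (R 4.3.3; 1 model over 4 genotypes, eBayes with trend). The p-values were adjusted by Benjamini-Hochberg within each comparison. Thresholds were those of the study's methods, 0.05 for the adjusted p and 1 for the log2 fold change. The study's sleuth needs resampled estimates that were not used here. Depth per library is unknown, so no counting error is given.

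The members, the lists and the rule for naming genes were chosen with earlier results of these data known. Given in full were members called in any of 5 comparisons and the 3 highest in control, and from the lists the members called against control. Markers of testis, ejaculatory duct, hemocytes, midgut, Malpighian tubule, neurons and secondary cells were also counted: against control, 1 of 6 tested testis markers was higher in Myc+E2f/Dp, 2 of 3 duct markers were lower in Myc+E2f/Dp and 1 lower in Yki*+Dp, 3 of 5 secondary cell markers were lower in Myc+E2f/Dp, 1 tested midgut marker was higher in YkiWT, and no hemocyte, tubule or neuron marker passed. Of all tested genes, 7.15% were higher and 5.94% lower in Myc+E2f/Dp, 1.46% lower in Yki*+Dp and 1.88% higher in YkiWT. Alternatives were other scaling, pseudocounts, filters and fold thresholds, a fit of only 2 groups, a replicate block, no trend, transcript values and leaving out each library. A requirement of 1 TPM in all control libraries was added after the data were seen. Positions are from Ensembl release 115 (BDGP6.54), whereas the authors used an earlier annotation of the same assembly. Plots were made in Python 3.11.15 with matplotlib 3.10.9.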

Additional observations from a re-analysis of the deposited data

Results flagged for a closer look

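*GstZ1* was the one Gst gene that differed from control in opposite directions in 2 genotypes by adjusted p alone, with the direct comparison also past that threshold. It was lower in Myc+E2f/Dp (-0.66 on the log2 scale, adjusted p = 0.000412) and higher in Yki*+Dp (0.70, adjusted p = 0.000526), and Myc+E2f/Dp minus Yki*+Dp was -1.36 (adjusted p = 2.11e-06). As deposited, the Myc+E2f/Dp value against control was -0.07, and the direct difference was -1.07.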

How the results depend on the processing

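The number of Gst genes past both thresholds was 3 in Myc+E2f/Dp, 9 in Yki*+Dp and 5 in YkiWT against control, 3 between Myc+E2f/Dp and Yki*+Dp, and 1 between Yki*+Dp and YkiWT. With TPM as deposited it was 12 in Myc+E2f/Dp, 14 in Yki*+Dp and 3 in YkiWT (13, 15 and 3 transcripts, and 3 transcripts between Myc+E2f/Dp and Yki*+Dp). The genes that passed newly in Myc+E2f/Dp were *GstD3*, *GstD5*, *GstD9*, *GstE3*, *GstE6*, *GstE9*, *GstE12*, *GstO3*, *GstT1* and *GstT4*, all higher, while *GstE13* no longer passed. In Yki*+Dp *GstD1*, *GstD5*, *GstE12*, *GstT4* and *GstZ1* passed newly, all higher. In Myc+E2f/Dp the share of all tested genes that passed also grew, from 13.1% on scaled TPM to 30.1% as deposited. A fold threshold of 0.5 on the log2 scale gave 13, 15, 13, 11 and 5 in the order above. At that threshold 34.4% of all tested genes passed in Myc+E2f/Dp. A pseudocount of 0.1 gave 5 in Myc+E2f/Dp, where 18.3% of all tested genes passed, and 6 between Myc+E2f/Dp and Yki*+Dp. A pseudocount of 0.5 gave 5 between Myc+E2f/Dp and Yki*+Dp. Requiring 1 TPM in all control libraries, chosen after seeing the data, gave 3 in YkiWT. Transcript values gave 5 calls between Myc+E2f/Dp and Yki*+Dp, and 2 between Yki*+Dp and YkiWT. Leaving out 1 library gave 2 to 6 in Myc+E2f/Dp (6 without its replicate 2), 7 to 10 in Yki*+Dp, 2 to 5 in YkiWT (2 without its replicate 1, 3 without any 1 control library), 3 to 6 between Myc+E2f/Dp and Yki*+Dp (6 without Myc+E2f/Dp replicate 3 or Yki*+Dp replicate 3) and 1 to 2 between Yki*+Dp and YkiWT (2 without Yki*+Dp replicate 3). For transcripts the ranges were 2 to 6, 7 to 12, 2 to 5, 4 to 7 and 1 to 4. Without Myc+E2f/Dp replicate 2, 12% of all tested genes passed in Myc+E2f/Dp. For the other comparisons the shares of all genes under the alternatives are not given. Those counts alone therefore cannot be read as particular to the Gst genes. Multiplying by the library factors moved the family's sum to 793 TPM in Myc+E2f/Dp, 972 in YkiWT and 692 in control.

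Among the genes given in full under the naming rule, 3 changed sign. As deposited, *GstO2* was 0.48 in Myc+E2f/Dp, 0.18 in Yki*+Dp and 0.046 in YkiWT, and *GstE13* was 0.021 in YkiWT. Leaving out 1 library, the YkiWT value ran from -0.085 to 0.041 for *GstE13* (above 0 without YkiWT replicate 3 or control replicate 1) and from -0.067 to 0.076 for *GstO2* (above 0 without the same 2 libraries). *GstE8* in Myc+E2f/Dp was -0.030 without Myc+E2f/Dp replicate 3, against 0.30. Of 1473 values of such genes under the alternatives, 1378 kept direction and side of the threshold, 59 passed it newly, 27 no longer passed and 9 changed sign; except where shown, the cause was not tested.

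The fit did not treat the replicate numbers as pairs, and 3 libraries a genotype cannot show whether they are. Same-numbered libraries correlated at -0.313 to 0.515 in their deviations, and differently numbered ones at -0.385 to 0.368. Of the same-numbered pairs 9 of 18 were over 0.1, and 5 of 12 libraries correlated best with their own number. With the replicate number as a block the counts were 3, 9, 5, 3 and 1, the same as without it.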
